A study of Mus musculus with 6 samples.

Results

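The protease-activated receptors are a family of 4 G protein-coupled receptors, and the genes F2r, F2rl1, F2rl2 and F2rl3 encode PAR1, PAR2, PAR3 and PAR4. All 4 genes were found by their symbols among the 34245 genes of the expression table. The family was selected on its measured values, since the levels in the same 3 tumors were known when it was chosen, so the levels are given as a description and no test was made on them.

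A protease-activated receptor carries its own ligand. A serine protease cuts the outer end of the receptor, and the newly exposed end folds back and switches the receptor on, which couples it to G proteins that release calcium, reshape the cytoskeleton or lower cyclic AMP. The receptors are best known from platelets, endothelium and epithelium, and PAR1 is also found on T-cells.

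RNA-seq was carried out on 3 independent peripheral T-cell lymphomas (PTCL), named tumors 1, 2 and 3, each a replicate of a single group. The tumors came from lymph nodes of terminally sick Dnmt3b+/- mice of the FVB strain, whose germline carries a conventional knockout of 1 Dnmt3b allele in every cell, and the age of the mice is not given in the sources used here. Values are FPKM, the reads on a gene scaled to the length of its exons and the depth of the library, so levels can be set side by side between genes. No control tissue is among the values used, the 3 bisulfite sequencing samples of the series were not analysed here, and every comparison below is between tumors of the same genotype or between genes.

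Dnmt3b, the targeted gene, had levels of 0.975, 1.55 and 1.25 FPKM in tumors 1, 2 and 3. These levels rest on 153, 150 and 133 reads. They cover all exons, so the wild-type and the targeted allele cannot be told apart. All 9 T-cell genes read beside the T-cell label were above 0.2 FPKM in every tumor, beside 36.7% of all genes. All 5 B-cell genes were too, so this count alone cannot settle the label. Cd8b1, a chain of the CD8 coreceptor, had 435, 166 and 443 FPKM in tumors 1, 2 and 3, and Cd8a, the other chain, had 259, 122 and 218 FPKM. Trac, the constant region of the T-cell receptor alpha chain, had 165, 213 and 182 FPKM. Cd4 was lower, with 28.4, 4.28 and 8.22 FPKM.

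The libraries of tumors 1, 2 and 3 held 30726572, 18969989 and 20770929 reads, as recovered from the FPKM and the exon lengths. Intervals in brackets are exact Poisson 95% intervals of the reads behind an FPKM. They cover counting error only and say nothing of the spread between tumors. Where a gene had no read, the limit that a count of 0 allows was set at 3 reads.

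F2r, the main thrombin receptor PAR1, was the most abundant member in each of the 3 tumors. Its level was 64.2 FPKM in tumor 1 (62.6 to 65.8, 6579 reads), 64.6 FPKM in tumor 2 (62.6 to 66.6, 4087 reads) and 81.4 FPKM in tumor 3 (79.3 to 83.5, 5638 reads). Tumors 1 and 2 overlapped within counting error and tumor 3 lay above both, and the mean was 70.0 ± 9.81 FPKM (SD, n = 3). In a bulk tumor, fewer cells of a type and less RNA per cell cannot be told apart, and this holds for each level given here. By mean FPKM, F2r was rank 367 of all 34245 genes. Only 404, 417 and 308 genes had a higher level in tumors 1, 2 and 3.

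F2rl1, or PAR2, the receptor opened by trypsin, tryptase and other trypsin-like proteases but not by thrombin, differed most between the tumors. Its level was 0.416 FPKM in tumor 1 (0.289 to 0.578, 35 reads), 0.173 FPKM in tumor 2 (0.0791 to 0.329, 9 reads) and 18.0 FPKM in tumor 3 (17.0 to 19.2, 1027 reads). Tumor 3 was high. Tumor 1 was low but its interval lay above the detection threshold of 0.2 FPKM, whereas the interval of tumor 2 spanned it. The ratio of tumor 3 to tumor 1 was 43.4 (95% counting interval 31.0 to 62.7, exact binomial), and the ratio of tumor 3 to tumor 2 was 104 (54.7 to 229). Scaled to 4 T-cell genes (Cd3d, Cd3e, Cd3g and Trac), a setting chosen after seeing the data, the ratios were 34.1 and 106. The mean of 6.21 ± 10.2 FPKM (SD, n = 3) therefore describes none of the tumors, and without tumor 3 it was 0.294 FPKM. F2rl1 stood above 95.02% of all genes of the table in tumor 3, above 61.4% in tumor 1 and above 56.9% in tumor 2.

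F2rl2 encodes PAR3, a thrombin receptor that in mouse platelets serves as a cofactor for the cutting of PAR4. Its level was 3.26 FPKM in tumor 1 (2.87 to 3.69, 251 reads), 1.81 FPKM in tumor 2 (1.45 to 2.24, 86 reads) and 1.21 FPKM in tumor 3 (0.932 to 1.55, 63 reads). Tumor 1 lay above the other tumors, and the ratio of tumor 2 to tumor 3 was 1.49 (95% counting interval 1.07 to 2.10). The mean was 2.10 ± 1.06 FPKM (SD, n = 3).

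F2rl3 encodes PAR4, the receptor through which thrombin activates mouse platelets. Its level was 6.18 FPKM in tumor 1 (5.58 to 6.84, 379 reads), 2.35 FPKM in tumor 2 (1.89 to 2.89, 89 reads) and 3.04 FPKM in tumor 3 (2.53 to 3.62, 126 reads). As for F2rl2, tumor 1 was highest, and the ratio of tumor 3 to tumor 2 was 1.29 (95% counting interval 0.978 to 1.72), so that these tumors were not separated. The mean was 3.86 ± 2.04 FPKM (SD, n = 3).

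**Figure D1:**
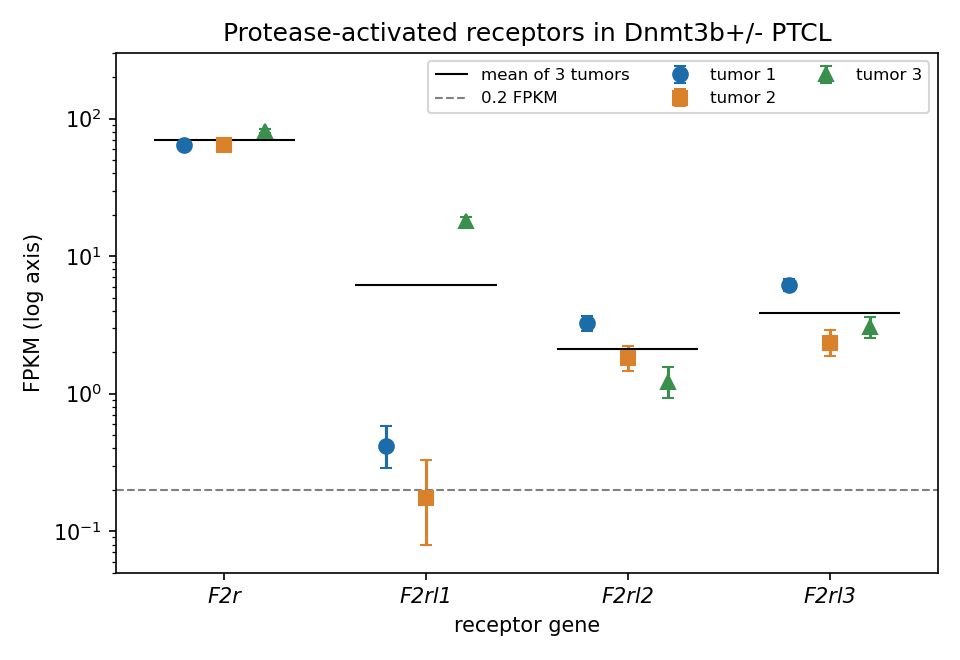
FPKM of the 4 receptor genes in tumors 1, 2 and 3 on a log axis, with exact Poisson 95% intervals as error bars, the mean of the 3 tumors as a black line and 0.2 FPKM as a dashed line. F2r lies between 64.2 and 81.4 FPKM in all tumors, whereas F2rl1 reaches 18.0 FPKM in tumor 3 and is at 0.416 and 0.173 FPKM in tumors 1 and 2.

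The order of the members by level was F2r, F2rl3, F2rl2 and F2rl1 in tumors 1 and 2. In tumor 3 it was F2r, F2rl1, F2rl3 and F2rl2, so F2rl1 moved from the lowest to the next below F2r. F2rl2 and F2rl3 had overlapping intervals in tumor 2 and separate intervals in tumors 1 and 3. Over the 3 tumors, F2r stood apart from every other member, while the means of F2rl1, F2rl3 and F2rl2 differed by less than the SD of F2rl1. F2r made up 86.7%, 93.7% and 78.5% of the FPKM summed over the family in tumors 1, 2 and 3. The share of F2rl1 was 0.561%, 0.251% and 17.4%. F2r was 10.4, 27.5 and 26.8 times as high as F2rl3 in tumors 1, 2 and 3. The summed level of the family was 74.0, 68.9 and 104 FPKM in tumors 1, 2 and 3, and F2r and F2rl1 were the members highest in tumor 3.

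A level above 0.2 FPKM was taken as detected. In every tumor, 3 of the 4 members passed it, beside 36.7% of all 34245 genes (12559 genes). F2rl1 was below it in tumor 2, where its interval spans the threshold, so its detection there cannot be decided at this depth. The same 3 members, F2r, F2rl2 and F2rl3, also passed a threshold of 1 FPKM in every tumor, beside 28.4% of all genes (9716 genes).

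The variation of each member was described by the part of its summed FPKM that fell to its highest tumor. The shares were 38.7% for F2r, 96.8% for F2rl1, 51.9% for F2rl2 and 53.4% for F2rl3. Across the 14733 genes with a mean of at least 0.2 FPKM the median share was 43.6%, and across the members it was 52.7%. A single tumor held over 2/3 of the sum in 1 of the 4 members, F2rl1, beside 9.81% of those genes (1445 genes). F2r was steadier than most, with 22.7% of the genes at a lower share. F2rl2 and F2rl3 lay in the upper part of the distribution, with 74.9% and 77.3% of the genes at a lower share.

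Genes led by tumor 3 were few. It held over 2/3 of the sum in 0.516% of the genes (76 genes), and its share of F2rl1 was reached or passed in 4 genes, F2rl1 included. Tumor 3 was the highest tumor for F2r and F2rl1, beside 15.0% of the genes. For F2r, tumors 1 and 3 were nearly level after scaling to the 4 T-cell genes (76.4, 59.3 and 76.0 in tumors 1, 2 and 3). Tumor 1 was the highest for F2rl2 and F2rl3, beside 49.8% of the genes, and remained so under each of the 3 other scalings.

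**Figure D2:**
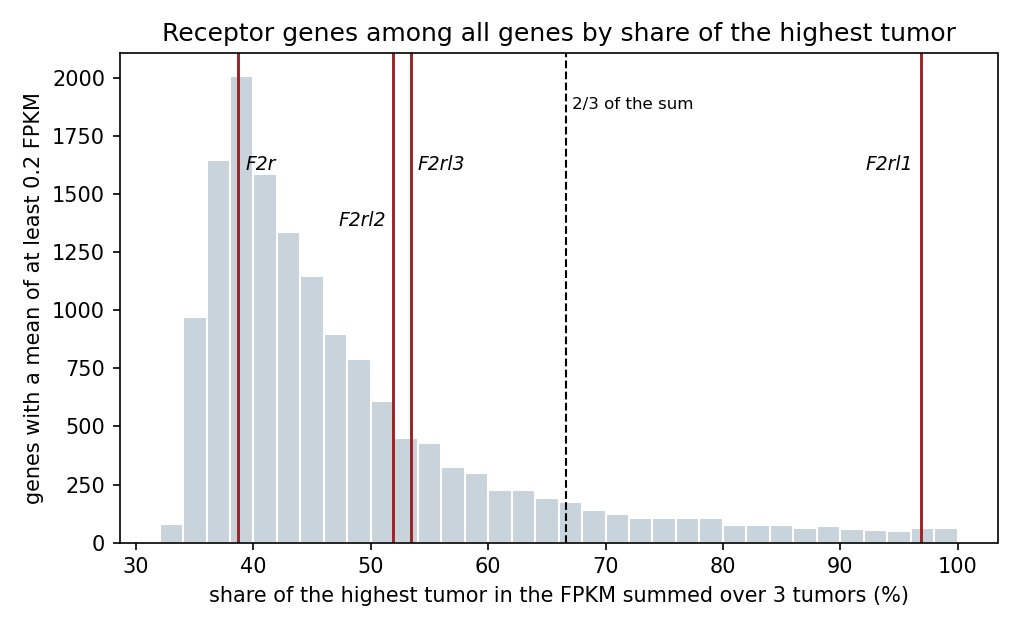
Number of genes with a mean of at least 0.2 FPKM (14733 genes, bars) by the share of the highest tumor in the FPKM summed over 3 tumors, with the 4 receptor genes as red lines and 2/3 of the sum as a dashed line. F2r at 38.7% lies near the peak of the distribution and F2rl1 at 96.8% near its upper end.

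F2rl1, F2r and F2rl2 lie close together on chromosome 13 of mm10 and F2rl3 lies alone on chromosome 8. F2rl1 (ENSMUSG00000021678) spans chr13:95511732-95525227 on the minus strand, F2r (ENSMUSG00000048376) spans chr13:95601803-95618487 on the minus strand and F2rl2 (ENSMUSG00000021675) spans chr13:95696853-95702739 on the plus strand. The gap between F2rl1 and F2r is 76.6 kb and that between F2r and F2rl2 is 78.4 kb, so that the cluster extends over 191 kb. F2rl3 (ENSMUSG00000050147) spans chr8:72761880-72763874 on the plus strand. Among the genes of the cluster, the highest tumor was tumor 3 for F2rl1 and F2r and tumor 1 for F2rl2. After scaling to the 4 T-cell genes, tumors 1 and 3 were nearly level for F2r, at 76.4 and 76.0. The ratio of tumor 3 to tumor 1 was 43.4 for F2rl1, 1.27 for F2r and 0.371 for F2rl2. Whether closeness goes with a like pattern was not tested.

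The genes next to F2rl1 had no read in any tumor. These were Crhbp, which encodes a protein that binds corticotropin-releasing hormone, S100z, a calcium-binding protein gene, and the unnamed transcript gene AC159263.1 between F2rl1 and F2r, and a count of 0 allows at most 0.396 FPKM for any of them. The 1027 reads of F2rl1 in tumor 3 thus stood beside genes without a read on both sides. AC171003.1, a transcript gene 10.04 kb from F2rl2, was also highest in tumor 3, with 0.0782, 0.0317 and 0.463 FPKM in tumors 1, 2 and 3, but it rests on 4, 1 and 16 reads.

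F2rl2 lies within Iqgap2, a scaffold protein gene on the opposite strand whose near end is 8.69 kb from F2r. Iqgap2 had 23.0, 14.7 and 13.3 FPKM in tumors 1, 2 and 3, the same order as F2rl2. F2rl2 sits in intron 13 of the longest Iqgap2 transcript, shares 0 exon bases with it and is 5139 bases from its nearest exon. The level of F2rl2 was 14.2%, 12.3% and 9.08% of that of Iqgap2. The strand of the reads was not used in counting, as a pair of opposite genes next to F2rl3 shows, so reads from an unspliced Iqgap2 RNA and from F2rl2 cannot be told apart.

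That pair, Gm45705 and Gm45706, covers nearly the same bases on opposite strands 1.61 kb beyond the end of F2rl3 and held the same 310, 73 and 137 reads in tumors 1, 2 and 3. Like F2rl3 they were highest in tumor 1, at 4.73, 1.80 and 3.09 FPKM for Gm45705. Sin3b, a corepressor gene 3.68 kb before F2rl3, had another order, with 7.74, 10.3 and 6.99 FPKM. Nwd1, also within 100 kb of F2rl3, was at or below 0.0134 FPKM in each tumor.

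**Figure D3:**
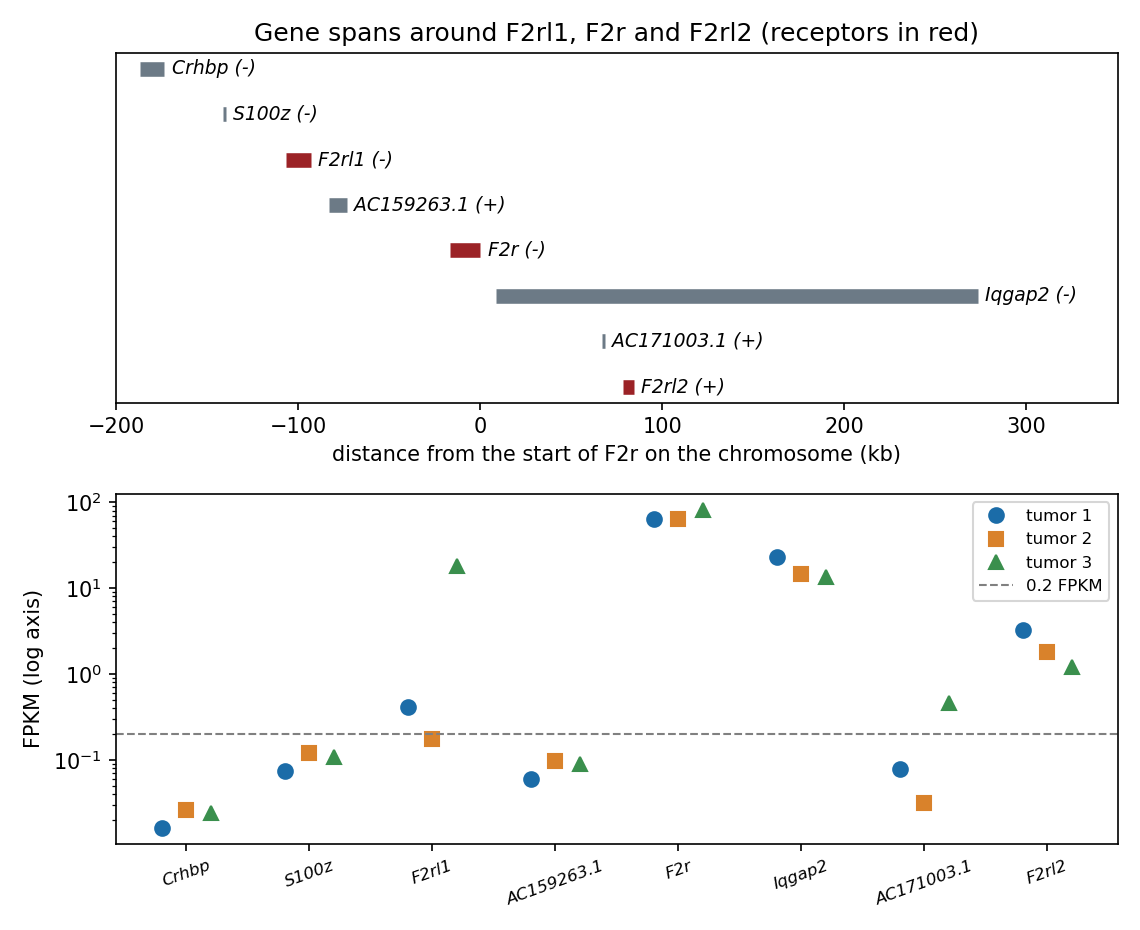
Upper panel, spans of the genes around F2rl1, F2r and F2rl2 by distance from the start of F2r in kb, with strands in brackets and receptors in red; lower panel, FPKM of the same genes in tumors 1, 2 and 3 on a log axis, with the deposited value of 0.9 read for genes without a read. Crhbp, S100z and AC159263.1 have no read in any tumor, while F2rl1 between them reaches 18.0 FPKM in tumor 3.

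Promoters from RefSeq (build GRCm38.p6) were matched for 3 of the 4 members, F2r, F2rl2 and F2rl3, and not for F2rl1. They are shown because the 3 members detected in all tumors start from sequences of very different CpG content, a property that DNA methyltransferases act on. Each stretch runs from 250 to 71 bases before the RefSeq start on the strand of the gene, and CpG dinucleotides are in capitals. They are chr13:95618537-95618716 (minus strand), chr13:95696670-95696849 (plus strand) and chr8:72761409-72761588 (plus strand).
F2r: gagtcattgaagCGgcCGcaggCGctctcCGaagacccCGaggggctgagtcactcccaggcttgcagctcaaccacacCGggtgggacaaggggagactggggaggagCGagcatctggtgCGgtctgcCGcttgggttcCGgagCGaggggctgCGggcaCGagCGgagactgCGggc
F2rl2: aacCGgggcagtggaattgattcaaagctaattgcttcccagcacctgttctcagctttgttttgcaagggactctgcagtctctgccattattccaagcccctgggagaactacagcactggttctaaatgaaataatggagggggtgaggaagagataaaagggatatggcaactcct
F2rl3: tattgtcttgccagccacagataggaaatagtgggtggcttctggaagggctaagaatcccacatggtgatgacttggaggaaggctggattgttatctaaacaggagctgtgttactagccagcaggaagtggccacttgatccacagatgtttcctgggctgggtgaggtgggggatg

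The F2r stretch held 15 CpG, more than 86.03% of the 32851 promoters of the table over the same window, where the median was 4. The F2rl2 stretch held 1 and the F2rl3 stretch held 0. The share of G and C was 68.9% in F2r, 47.2% in F2rl2 and 51.1% in F2rl3. Of the 3 members matched, F2r had the most CpG, and the methylation of these bases was not analysed here. The letters TGANTCA, with any base as N, were searched on both strands after the sequences had been seen. With G or C as N, they are the core of the site that AP-1 factors bind. A match to TGANTCA occurred once in F2r, as TGAGTCA from 204 bases before the start. F2rl2 had 1 match, TGATTCA from 233 bases before the start, which has T in the middle and is not that core. F2rl3 had none. Of all promoters, 4.93% had a match with any middle base. A match is a description of the sequence and no evidence of binding.

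For each member, the 3 genes with a mean of at least 1 FPKM were named whose shares of the summed FPKM in the 3 tumors were nearest to its own, by Euclidean distance over 11196 genes. With only 3 tumors many genes fit a pattern by their number alone, so the count within a distance of 0.05 is given beside them. F2r was nearest to Prpf6, a splicing factor (12.8, 13.1 and 16.3 FPKM in tumors 1, 2 and 3), Abcf3 and Lyrm4, and 583 genes (5.21%) lay within the distance. F2rl2 was nearest to Pbk, a mitotic kinase (7.72, 4.30 and 2.80 FPKM), and to Cdc6 and Orc1, which license replication origins, with 153 genes (1.37%) within the distance. F2rl3 was nearest to Dram2, a lysosomal membrane protein gene (7.47, 2.86 and 3.68 FPKM), Zfp322a and Stc2, with 252 genes (2.25%) within it.

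F2rl1 had the rarest pattern, with 5 genes (0.0447%) within the distance. Its nearest genes were D330045A20Rik, with 0.0348, 0.0564 and 4.38 FPKM, and the T-cell receptor variable segments Trav12-3, with 0.147, 0.107 and 14.9 FPKM, and Trbv5, with 15.2, 0.143 and 338 FPKM. Variable segments of the T-cell receptor are joined anew in each T-cell clone. These genes were chosen for their likeness to F2rl1, and with a minimum mean of 0.2 FPKM both segments gave way to other genes. Both stayed with a minimum mean of 5 FPKM, and Trav12-3 but not Trbv5 stayed with centred log2 values.

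Markers of other cell types were read beside F2rl1, since lymph node tumors hold cells other than the lymphoma. Tumor 3 had the lowest summed level of 7 of the 11 marker lists, those of macrophages, platelets, endothelium, fibroblasts, epithelium, pancreatic acinar cells and erythroid cells. The 7 fibroblast genes summed to 11.8, 43.3 and 0.371 FPKM in tumors 1, 2 and 3, with Dcn most abundant in tumor 1 and Col1a1 in tumors 2 and 3, and Pdgfra and Lum had no read in tumor 3. The 5 epithelial genes summed to 14.2, 2.78 and 0.937 FPKM, with Cdh1 most abundant in tumors 1 and 3 and Epcam in tumor 2, and Krt19 had no read in any tumor. Cdh1 carried most of the sum in tumor 1, with 13.7, 0.934 and 0.410 FPKM. Krt18 was lowest in tumor 1, with 0.116, 0.565 and 0.172 FPKM from 5, 15 and 5 reads. Krt8 had 0.117 FPKM in tumor 2. Its 0.0162 and 0.0240 FPKM in tumors 1 and 3 match the deposited value of 0.9 read, which stands for a count of 0. Tumors 1 and 3 can therefore not be ranked for Krt8. The 8 endothelial genes summed to 15.4, 15.1 and 5.32 FPKM, with Pecam1 most abundant, and Cldn5 had no read in tumor 3. The summed levels of these 3 lists were lowest in tumor 3, where F2rl1 was highest, and the part of these cells in the level of F2rl1 was not tested.

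B-cell markers were the list highest in tumor 3 by the widest margin. All 5 genes were above 0.2 FPKM in every tumor and highest in tumor 3, and they summed to 56.2, 13.7 and 104 FPKM, with Cd79a, a chain of the B-cell receptor complex, most abundant at 23.1, 7.31 and 49.0 FPKM. The order of the tumors was that of F2rl1. The ratio of tumor 3 to tumor 1 was 1.84 for the B-cell list and 43.4 for F2rl1, and the ratio of tumor 3 to tumor 2 was 7.56 for the list and 104 for F2rl1. The part of B cells in the level of F2rl1 was not tested. The 9 T-cell genes summed to 1361, 982 and 1411 FPKM, and their ratio of tumor 3 to tumor 1 was 1.04.

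Mast cells and neutrophils both release proteases that act on these receptors. The sums of their lists were highest in tumor 1, as were F2rl2 and F2rl3, beside 49.8% of the genes with a mean of at least 0.2 FPKM. The 6 mast cell genes summed to 36.8, 1.20 and 5.36 FPKM in tumors 1, 2 and 3, with Mcpt4 most abundant in tumor 1 at 14.8 FPKM, and Fcer1a had no read in tumors 2 and 3. Ms4a2 was highest in tumor 3 instead, with 0.613, 0.487 and 0.976 FPKM. The 6 neutrophil genes summed to 36.5, 1.402 and 15.4 FPKM, with S100a9 most abundant in each, and Mpo and Ly6g were near 0 in all tumors, with 1 read each in tumor 1 and 0 in the others. Camp was highest in tumor 3, with 0.258, 0.0695 and 0.572 FPKM, but from only 6, 1 and 9 reads. The 7 macrophage and monocyte genes summed to 269.8, 91.2 and 33.1 FPKM, the order of F2rl2, with Lyz2 most abundant in tumors 1 and 3 and Cd68 in tumor 2. The 5 erythroid genes followed the same order, with 162, 30.2 and 4.69 FPKM and Hba-a1 most abundant. The part of these cells in the levels of F2rl2 and F2rl3 was not tested.

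Platelets carry PAR4 and PAR3 in the mouse. The 9 platelet and megakaryocyte genes of the list summed to 1.61, 2.43 and 0.453 FPKM, none of these 9 was above 0.2 FPKM in every tumor, and Ppbp, Gp5, Gp9 and Treml1 had no read in any. Itga2b was most abundant in tumors 1 and 3 and Pf4 in tumor 2, where it had 1.75 FPKM. Gp1ba, a platelet glycoprotein gene held in the list of cofactors instead, had 0.742, 1.18 and 0.726 FPKM from 62, 61 and 41 reads. Without the values of the genes counted as having no read, the sums of the 9 genes were 1.52, 2.27 and 0.246 FPKM. These sums still hold Gp1bb at 0.0252 and 0.0230 FPKM in tumors 2 and 3, values that match those of a gene without a read. The level of F2rl3 was 6.18, 2.35 and 3.04 FPKM, and the part of platelets in it was not tested.

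**Figure D4:**
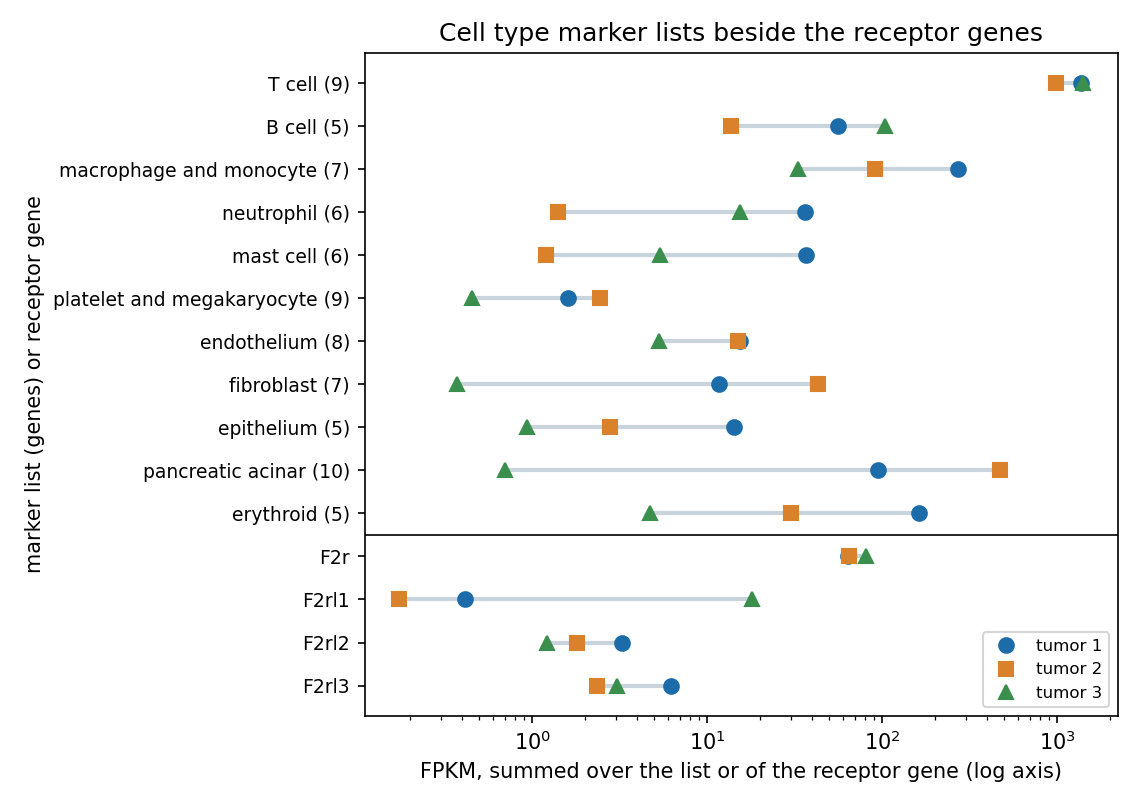
FPKM summed over each of 11 cell type marker lists, with the number of genes in brackets, and of the 4 receptor genes, in tumors 1, 2 and 3 on a log axis. Tumor 3 is at the lower end of the fibroblast, epithelium, endothelium and pancreatic acinar lists and at the upper end of the B-cell list and of F2rl1.

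The genes around the receptors were taken from 6 lists with 88 genes, of which 87 were in the table and Mmp1a was not matched. Of these, 44 (50.6%) were above 0.2 FPKM in every tumor, beside the 36.7% of all genes. They were spread unevenly, with 4 of 28 activating proteases, 2 of 8 cofactors, 3 of 12 inhibitors, 7 of 9 G protein alpha subunits, 16 of 18 effectors and 12 of 12 desensitization genes. Most genes for the inner side of receptor signaling were thus detected in every tumor, and few of the activating proteases were. The difference between the lists was not tested.

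Thrombin itself, encoded by F2, had no read in any tumor, which allows up to 0.0213, 0.0344 and 0.0314 FPKM in tumors 1, 2 and 3. By mean over the tumors, the most abundant gene of the protease list was Gzma, a granzyme of cytotoxic T-cells, with 63.4, 10.6 and 3.59 FPKM in tumors 1, 2 and 3. The trypsin gene Prss2, whose product opens PAR2, had 14.9, 52.1 and 0.177 FPKM and was the most abundant of the list in tumor 2, and tumor 3, where F2rl1 was high, had 3 reads of it. Try4, with 3.86 and 34.6 FPKM in tumors 1 and 2, and Try5, with 4.08 and 18.8 FPKM, had no read in tumor 3. Reads of these trypsin genes may be uncertain between similar copies of the family, and this was not tested. F2rl1 and these trypsin genes were thus at opposite ends of the 3 tumors, but other proteases of the list were not. The tryptase genes Tpsb2 (5.96, 0.0488 and 0.312 FPKM) and Tpsab1 (4.01, 0.0503 and 0.483 FPKM) were highest in tumor 1 and lowest in tumor 2. St14, another gene of the list, had 0.605, 0.462 and 0.738 FPKM, the order of F2rl1. A relation between F2rl1 and the proteases was not tested.

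The trypsins stood beside a whole set of pancreatic genes. The 10 pancreatic acinar genes, Prss2 among them, summed to 94.3, 471 and 0.703 FPKM in tumors 1, 2 and 3, and all 10 were highest in tumor 2. Ctrb1 was most abundant in tumors 1 and 2, at 33.9 and 198 FPKM, and Ctrb1, Cela3b, Cpa1 and Cel had no read in tumor 3. The part of pancreatic RNA in the trypsin levels was not tested. Tumor 2 was the highest for none of the 4 receptor genes.

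Cofactors and inhibitors were low next to F2r. Procr, the endothelial protein C receptor, through which activated protein C reaches PAR1, had 1.81, 0.960 and 0.379 FPKM in tumors 1, 2 and 3. Thbd, or thrombomodulin, had 0.472, 0.467 and 0.194 FPKM, and Gp1ba, whose product binds thrombin, had 0.742, 1.18 and 0.726 FPKM. Of the inhibitors, Spint2, which blocks membrane-bound serine proteases, was highest, at 2.23, 5.54 and 4.67 FPKM. Serpinc1, or antithrombin, had 1.42, 1.47 and 1.08 FPKM, and Tfpi, which blocks tissue factor, had 1.75, 0.318 and 1.20 FPKM. None of these reached the level of F2rl1 in tumor 3.

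Among the G protein alpha subunits to which the receptors couple, Gnai2, which lowers cyclic AMP, was highest, with 65.0, 78.0 and 66.2 FPKM in tumors 1, 2 and 3, levels close to those of F2r. Gnai3 of the same class had 35.9, 22.7 and 32.2 FPKM, and Gna13, which signals to the cytoskeleton, had 27.3, 19.9 and 16.5 FPKM. Gnaq, which activates phospholipase C, varied most, with 8.77, 0.298 and 0.553 FPKM, and tumor 1 held its high level. Gna15, of the same class, had 2.44, 1.11 and 1.33 FPKM.

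The effectors were led by Arhgef1, an exchange factor activated by Gna13, at 70.3, 91.1 and 60.9 FPKM. Rhoa had 36.0, 18.2 and 28.2 FPKM, and Plcb2, the most abundant phospholipase C beta gene, had 11.0, 16.9 and 12.99 FPKM. Prkca, a protein kinase C, had 15.4, 3.41 and 5.55 FPKM, and Arhgef12 had 3.19, 0.561 and 1.07 FPKM. All 12 desensitization genes were detected, at means from 1.02 FPKM for Grk3 to 57.8 FPKM for Grk2. Grk2 and Grk6, kinases that mark active receptors, had 52.3, 66.0 and 55.1 FPKM and 51.9, 50.04 and 55.5 FPKM. Arrb2, the arrestin that then binds them, had 40.6, 64.4 and 60.1 FPKM, and Arrb1 had 1.85, 5.73 and 2.93 FPKM. Rgs16, which shortens G protein signals, had 2.42, 0.293 and 1.61 FPKM.

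**Figure D5:**
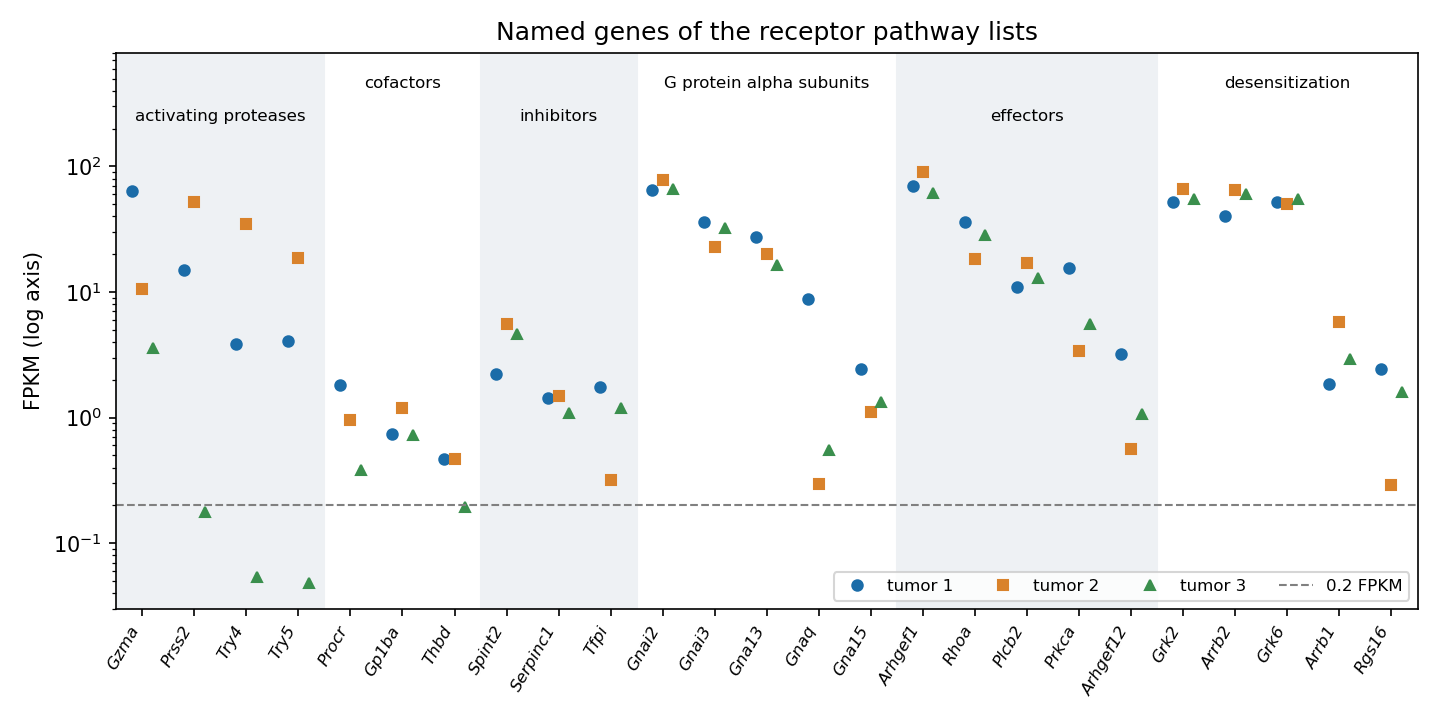
FPKM of the named genes of 6 receptor pathway lists in tumors 1, 2 and 3 on a log axis, ordered by mean within each list, with 0.2 FPKM as a dashed line. The trypsin genes Prss2, Try4 and Try5 fall below 0.2 FPKM in tumor 3, while Gnai2, Arhgef1, Grk2 and Grk6 lie at or above 50.04 FPKM in all 3 tumors.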

How the data were processed

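RNA-seq (paired-end, 150 bp) of 3 Dnmt3b+/- PTCL was used. Trimmed reads were aligned by the authors to the mm10 genome in STAR, and SeqMonk counted those of mapping quality 50 or more per gene. The deposited values are FPKM on a linear scale. DESeq2, named in the submitters' notes, was not used here. Members and lists were chosen with earlier results of these data known. All 3 value columns were matched to a sample.

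A gene with no read carries the FPKM of 0.9 read, which gave each library's depth. Reads were then recovered with GENCODE M21 exon lengths, available for 99.6% of genes, and 91.9% of these gave whole reads, within 0.01 read, in all tumors at once. Steps were checked on a simulated table. It was built with the same 0.9 read and the same exon lengths, so it cannot check either of these assumptions.

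Named genes are the members, Dnmt3b, all genes within 100 kb, the 3 most like each member, the 3 highest of each list by mean FPKM and, of each pathway list, the 2 with the largest ratio of highest to lowest tumor among genes with a mean of at least 1 FPKM. Other genes, such as Cd4, F2 and markers without a read, were named after their values were seen. Some genes that these rules cover are not reported here. With 1 group no test was made. The alternatives were other scalings, thresholds and distances, genes without a read set to 0, and each tumor left out. A planned comparison of protein sequences was not run. Software was SciPy 1.17.1, NumPy 2.4.6, pandas 2.3.3 and matplotlib 3.10.9 under Python 3.11.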

Additional observations from a re-analysis of the deposited data

How the results depend on the processing

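F2r had the highest mean of the members, and F2rl1 was highest in tumor 3, under each of the 4 scalings run. After every library was brought to a total of 1000000, the means were 338.6 for F2r, 27.9 for F2rl1, 10.5 for F2rl2 and 19.2 for F2rl3, since the deposited columns sum to less, and the shares of the highest tumor were 35.8%, 96.4% and 56.8% for F2r, F2rl1 and F2rl3. Median-of-ratios factors (1.10, 0.980 and 0.940 for tumors 1, 2 and 3) gave shares of 41.1% for F2r, 97.2% for F2rl1, 48.5% for F2rl2 and 49.8% for F2rl3. Scaling to the 4 T-cell genes, chosen after seeing the data, gave 36.1%, 96.3%, 58.1% and 59.5%. For F2r the highest tumor was then tumor 1, but nearly level with tumor 3, at 76.4 and 76.0. The cause of these shifts was not tested.

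With a share of 50% in place of 2/3, 3 members were led by a single tumor. Of these, F2rl2 and F2rl3 lay just above it, at 51.9% and 53.4%, and fell below it with median-of-ratios factors. Shares lower than theirs were held by 74.9% and 77.3% of the genes. The part of all genes over 50% is not given here, so this count is no result about the members. Members above 0.2 FPKM in every tumor were 3 or 4 under the alternatives. Pathway genes were 44 to 49 with a lower threshold or a tumor left out, and 35 above 1 FPKM. After rescaling, an alternative added after seeing the data, they were 57. Apart from the 28.4% above 1 FPKM, the share of all genes that passed was not counted under these settings, so these counts are no result about the members or lists. Of the 3 genes most like F2rl1, 1 (D330045A20Rik) stayed with a minimum mean of 0.2 FPKM, while Trav12-3 and Trbv5 did not. For F2rl2, 1 stayed with that minimum and 1 with centred log2 values. A minimum of 5 FPKM kept 0 for F2rl2 and 1 for F2rl3, by construction, since the other genes have lower means. Without tumor 3 the mean of F2rl1 fell from 6.21 to 0.294 FPKM. Setting genes without a read to 0 could not move a member, since each has reads in every tumor. Depth limits F2rl1 in tumor 2, with 9 reads. No paired analysis was possible because a single group has values.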
